A study of Rattus norvegicus with 8 samples.

Results

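Collagens, laminins and their closest matrix partners were followed in RNA from the medial thalamus of 8 male Sprague-Dawley rats. The set holds every gene that the array names as a collagen chain or as a laminin alpha, beta or gamma chain, together with fibronectin (Fn1), decorin (Dcn), lumican (Lum), biglycan (Bgn) and the nidogens (Nid1 and Nid2). The array carried 82 probes for 47 such genes. A probe was used when 4 or more of the 8 arrays, whichever their group, flagged it well above its local background. This left 63 probes for 41 genes, out of 14484 named genes kept of 20017 on the array. The brightest kept probe stood for each gene.

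The study compared conscious rats exposed to tracheal occlusion, a brief block of the airway, with surgical controls that had none (4 animals and 4 single-colour Agilent arrays per group). Sessions were held on each of 10 days, also for the controls. In the occlusion sessions the airway was blocked for 3 to 10 breaths at a time, with about 30 s of recovery between blocks, and tissue was taken within 10 min of the last session. The labels name no genetic change in either group and no sorting of cells. Every value is from bulk tissue, in which fewer cells of a type and less RNA per cell cannot be told apart.

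Collagens are built from 3 chains wound into a triple helix, which requires a glycine in each repeat of the chain's triplet of residues. Type I, III and V collagens form fibrils, type IV collagen forms the sheet of basement membranes together with laminins and nidogens, and type VI, IX, XV, XVI and XVIII collagens link fibrils, cells and basement membranes. In the brain, fibrillar collagens are made mainly by fibroblasts of the meninges and around larger vessels, while endothelial cells, pericytes and astrocytes make the basement membrane that surrounds vessels. Neurons and glia express some collagen chains of the minor types as well.

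Several probes show which letters stand behind the values. The following sequences are the probes as deposited, read 5′ to 3′, and the first 2 are shown because they run through the triple helix itself. Capitals in these mark codons of the form GGN that recur every 9 bases, the signature of the repeated glycine. The Col9a3 probe is at chr3:169613584-169613964 of rat build rn3, and the second Col9a1 probe is at chr9:22978230-22984184, both on the + strand.
Col9a3: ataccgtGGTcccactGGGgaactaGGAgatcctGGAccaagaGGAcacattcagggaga
Col9a1, second probe: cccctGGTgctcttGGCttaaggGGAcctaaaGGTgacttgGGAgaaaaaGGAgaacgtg
At least 5 such codons in a row were found in 3 of the 52 collagen probes (5.77%), in 0 of the 30 other member probes, and in 7 of the 41012 probes on the whole array (0.0171%). Both probes shown cover more of the genome than their 60 bases, and so did 9 of the 41 probes used for the values.

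The probes of the genes at the ends of the ranking, in lower case throughout because no part of them is singled out, were as follows. For Col16a1 the second probe is shown. Col18a1 lies at chr20:11981644-11981703 (+), Col16a1 at chr5:149133234-149133889 (+) and Lamb3 at chr13:109379316-109379375 (+), all in rn3.
Col18a1: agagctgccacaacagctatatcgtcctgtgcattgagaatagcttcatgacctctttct
Col16a1, second probe: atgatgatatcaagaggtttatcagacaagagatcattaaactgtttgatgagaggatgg
Lamb3: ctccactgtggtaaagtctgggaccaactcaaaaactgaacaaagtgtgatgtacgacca

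Across the 41 genes, none passed the test of occlusion against control. Each probe was tested with limma on log2 signal after scaling every array to its own 75th percentile, with Benjamini-Hochberg adjustment over 27154 probes and a threshold of 0.05. The same test called 0% of all probes, with a smallest adjusted p of 0.403. At an unadjusted p under 0.05 there were 5 of the 41 genes (12.2%), 3 of them higher and 2 lower on the occlusion arrays, against 11.1% of all probes (6.48% higher and 4.61% lower). Groups of arrays that did not overlap were found for 2 genes (4.88%), Col18a1 (higher) and Col9a3 (lower), against 6.71% of all probes (3.9% higher and 2.82% lower). Neither share stands far from the background of all probes.

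By sign alone, 14 genes were higher and 27 lower on the occlusion arrays (34.1% higher), where 53.2% of all genes and 53.6% of all probes were higher. The median difference of the 41 genes was -0.14 log2 units, and that of all genes was 0.017. Without control 1 the median was -0.057, and without occlusion 1 the number of higher genes was 9. The number of genes whose groups do not overlap was 7 without control 4 and 5 without occlusion 4. Fewer values have to separate when 1 array is left out. The share of all probes was not computed there, so these counts have no background. The 95% interval of the difference included 0 for 36 of the 41 genes and lay within 1 log2 unit either way for 27. For 23 genes the difference itself was under 0.25 in size.

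**Figure D1:**
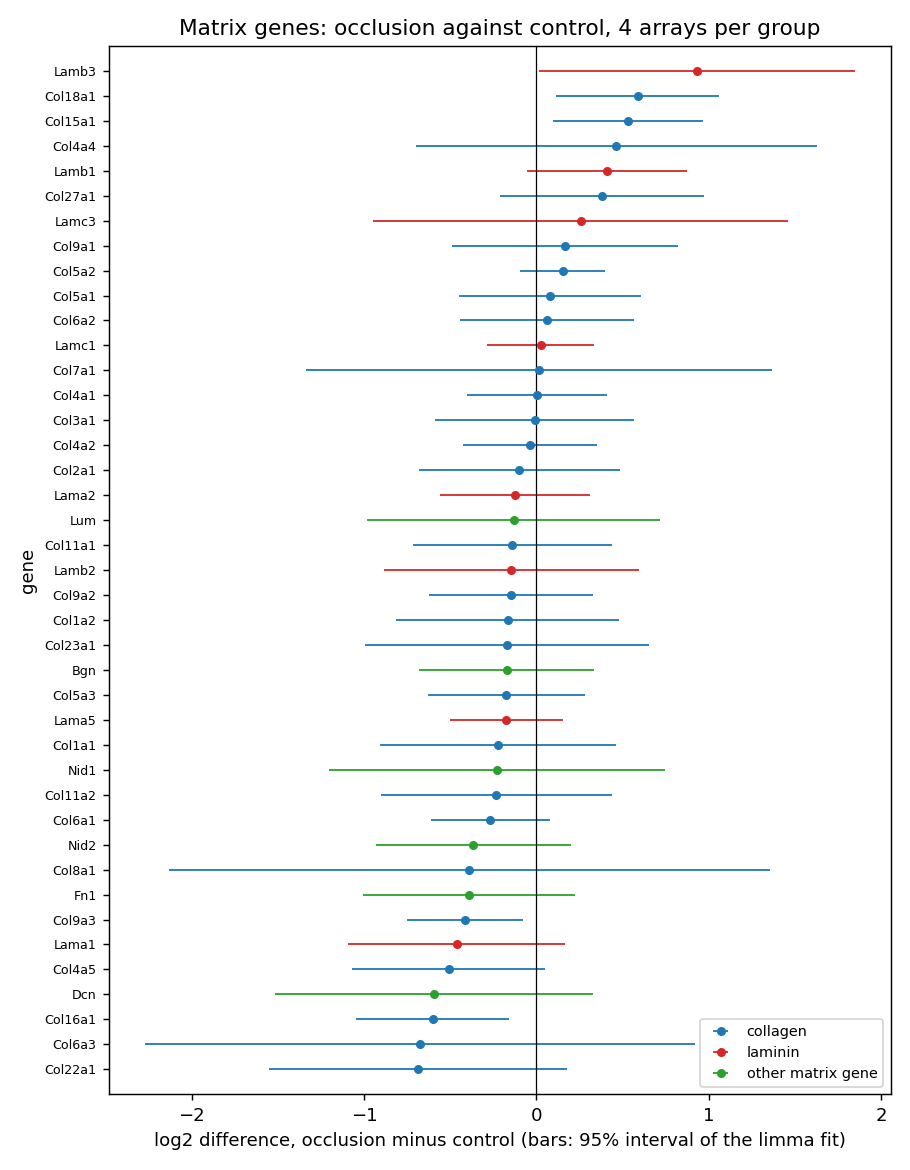
Each point is a matrix gene's log2 difference, occlusion minus control, with its 95% interval from limma (4 arrays per group), coloured by family. The differences run from -0.69 (Col22a1) to 0.93 (Lamb3), and 36 of the 41 intervals cross 0.

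The highest-ranked genes were the multiplexins Col18a1 and Col15a1, non-fibrillar basement membrane collagens whose C-terminal fragments are known as endostatin and endostatin-like peptides. In the sentences that follow, values are log2 signal minus the array's 75th percentile, given for arrays 1 to 4 of each group. Col18a1 measured 0.031, -0.48, -0.63 and -0.66 on the occlusion arrays and -0.71, -0.84, -1.38 and -1.17 on the control arrays. The groups did not overlap, with occlusion 1 above the rest of its group. The difference was 0.59 (SE 0.21, 1.504-fold higher, adjusted p = 0.403). It was 0.64 within slide 1 and 0.54 within slide 2, the 2 glass slides that each held 2 arrays of either group. A second Col18a1 probe, whose bases partly repeat those of the first, gave 0.57.

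Col15a1 measured -0.47, -0.43, -0.61 and -0.72 on the occlusion arrays and -0.66, -1.38, -1.44 and -0.87 on the control arrays. Control 1 reached into the occlusion range, and controls 2 and 3 were the lowest. The difference was 0.53 (SE 0.19, 1.44-fold higher, adjusted p = 0.406), with 0.23 within slide 1 and 0.83 within slide 2. The mean of both multiplexins, each gene centred on its mean over all arrays, lay between 0.088 and 0.56 on the occlusion arrays and between -0.63 and 0.091 on the control arrays, so that 1 control array touched the occlusion range.

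Fibril-associated collagens, which bind to the surface of fibrils or to neighbouring matrix, mostly lay on the other side. Of 5 measured, 4 were lower and 1 was higher, with a median difference of -0.41. Col16a1 had the lowest moderated statistic of all members. It measured 2.71, 3.12, 2.99 and 2.88 on the occlusion arrays and 3.63, 3.77, 3.72 and 2.97 on the control arrays. Control 4 lay among the occlusion arrays and the other controls lay above all of them. The difference was -0.60 (SE 0.19, 1.52-fold lower, adjusted p = 0.403), and the second probe gave -0.62. Within slides it was -0.45 and -0.75.

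Col9a3, a chain of type IX collagen, measured -1.69, -1.59, -1.45 and -1.77 on the occlusion arrays and -1.33, -1.22, -0.87 and -1.44 on the control arrays. The groups did not overlap, but occlusion 3 and control 4 were only just apart. The difference was -0.41 (SE 0.15, 1.33-fold lower, adjusted p = 0.404), with -0.19 within slide 1 and -0.64 within slide 2. The second Col9a3 probe gave -0.22 (SE 0.21). Its letters hold the polyadenylation hexamer AATAAA only in the reverse complement, the 1 such case among 82 member probes, and the strand it reads was not tested. The partner chains of type IX collagen were Col9a2 at -0.15 (SE 0.21) and Col9a1 at 0.17 (SE 0.29).

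Col22a1, a collagen of tissue junctions, measured -5.37, -5.30, -4.16 and -5.10 on the occlusion arrays and -4.64, -4.39, -3.35 and -4.81 on the control arrays. Control 3 stood highest and occlusion 3 lay above all the other controls. Its difference of -0.69 (SE 0.38, adjusted p = 0.516) was -0.038 within slide 1 and -1.33 within slide 2, and -0.37 without control 3. With normexp background correction it was -0.26.

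Fibril-forming collagens, the bulk of connective tissue matrix, showed small differences. Of 10 measured, 3 were higher and 7 lower, with differences between -0.23 and 0.38 and a median of -0.12. Col1a1, the alpha 1 chain of type I collagen, measured -0.53, 0.040, -0.84 and -1.08 on the occlusion arrays and 0.17, -0.37, -0.34 and -0.98 on the control arrays. Control 1 was highest and occlusion 4 lowest, and the groups overlapped widely. The difference was -0.22 (SE 0.30, adjusted p = 0.815), while the other kept Col1a1 probes gave 0.0023 and 0.060. Without control 1 it was -0.037.

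Col1a2, the partner chain of type I collagen, measured 0.18, 0.66, 0.12 and -0.36 on the occlusion arrays and 0.95, 0.090, 0.38 and -0.17 on the control arrays, a difference of -0.17 (SE 0.28). Col3a1, the chain of type III collagen, measured -1.33, -1.46, -2.07 and -1.96 against -1.08, -1.73, -1.92 and -2.05, a difference of -0.010 (SE 0.25). In all 3 genes control 1 held the highest value of the 8 arrays. The sign of Col3a1 changed with the scaling of the arrays, so it has no direction here.

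Col27a1 and Col5a2 stood among the 6 highest-ranked members. Col27a1, a cartilage-type fibrillar collagen, measured 0.073, -0.51, -0.43 and -0.73 on the occlusion arrays and -0.999, -1.30, -0.24 and -0.57 on the control arrays. Control 3 lay above 3 of the occlusion arrays, and the difference was 0.38 (SE 0.26, adjusted p = 0.598). It was 0.21 without control 2 and 0.23 without occlusion 1. Col5a2, a chain of type V collagen, measured 1.34, 1.30, 1.25 and 1.32 against 1.12, 0.99, 1.14 and 1.35. Its difference of 0.15 (SE 0.11) was small but so was its spread, and control 4 was the highest array. Of its 2 other kept probes, the one whose bases partly repeat those of the first gave 0.23. The one directly beside the first gave 0.13.

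The remaining fibrillar chains were Col5a1 at 0.078, Col2a1 at -0.098, Col11a1 at -0.14, Col5a3 at -0.17 and Col11a2 at -0.23, with standard errors from 0.20 to 0.29. Col11a2 had no value on occlusion 1, where its spot carried an outlier flag.

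**Figure D2:**
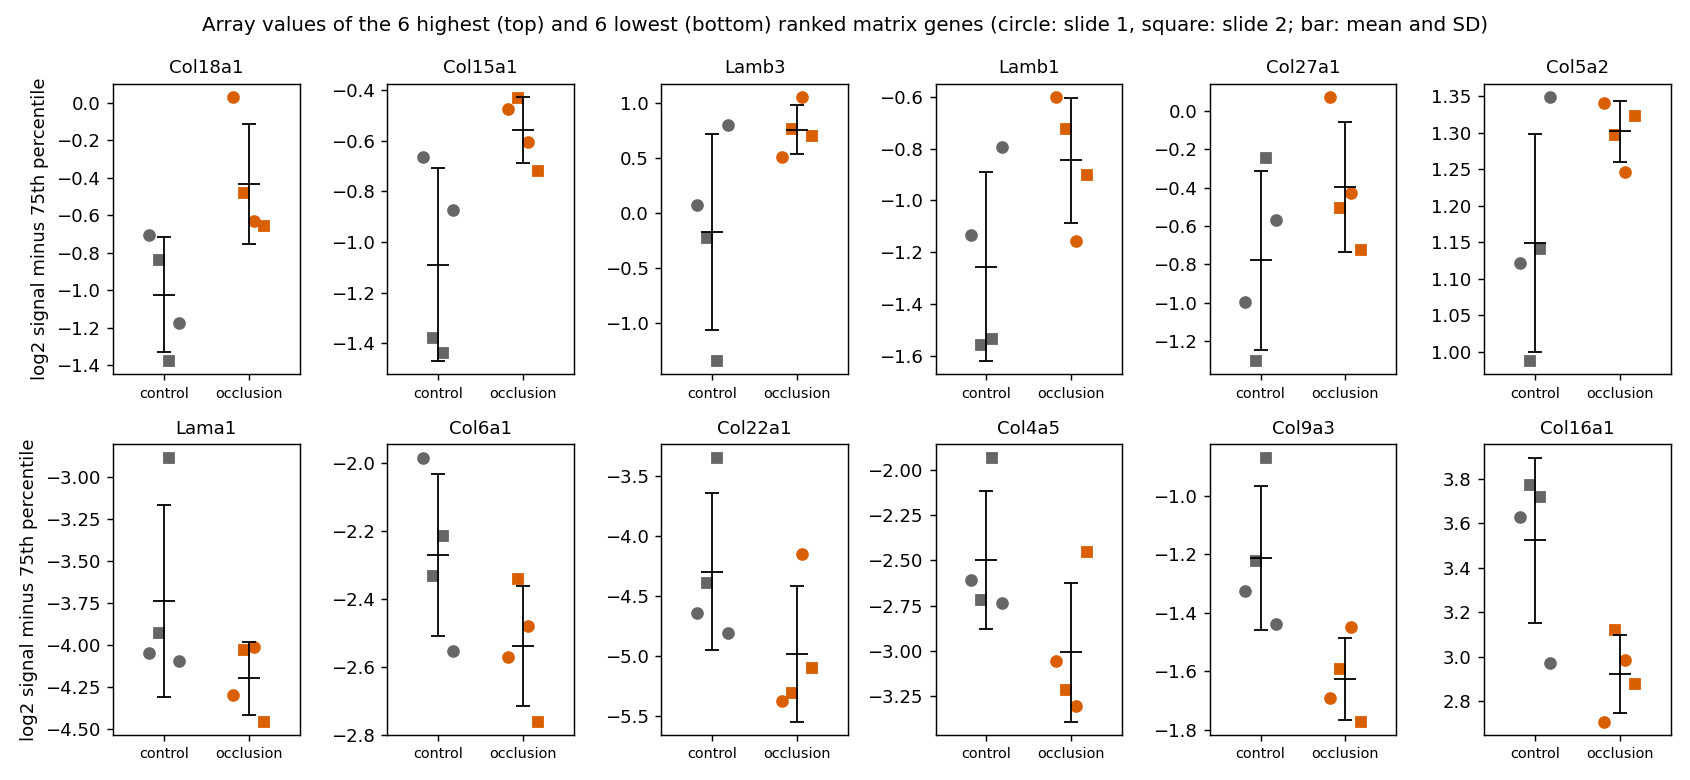
Log2 signal relative to the 75th percentile is plotted for each array, in the 6 members with the highest moderated statistic (top row) and the 6 with the lowest (bottom row); circles are slide 1, squares slide 2, and bars give the mean and SD of 4 arrays. Col18a1 and Col9a3 are the 2 panels in which the groups do not overlap, and the vertical scale differs between panels.

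Type IV collagen, the scaffold of vascular basement membranes, was flat in its main chains. Col4a1 measured 0.45, 0.58, 0.23 and 0.81 on the occlusion arrays and 0.24, 0.87, 0.59 and 0.37 on the control arrays, a difference of 0.0031 (95% interval -0.40 to 0.41). Col4a2 measured -1.57, -1.77, -1.20 and -1.499 against -1.48, -1.77, -1.16 and -1.48, a difference of -0.037 (95% interval -0.42 to 0.35). The groups lay over each other in both genes, and the sign of each turned under other settings. Neither interval reaches beyond 0.42 log2 units.

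Col4a1 and Col4a2 sit head to head on opposite strands of chromosome 16. In the RefSeq promoter table (build GRCr8) their start sites are 77 bases apart, and the table's windows around them overlap by 176 bases. The 76 bases between the start sites, chr16:84885521-84885596 (GRCr8, shown on the + strand), are printed because both genes share them and neither moved beyond its spread. Capitals mark the 1 match to the GC box GGGCGG, read on the opposite strand.
Col4a1 and Col4a2, between the start sites: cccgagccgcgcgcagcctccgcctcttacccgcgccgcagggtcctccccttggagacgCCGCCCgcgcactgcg
Of the 41 kept and 6 dim genes, 33 were in the promoter table. Searched on both strands, GGGCGG was found in 60.6% of these windows and in 33.1% of all 33469 windows, CCAAT in 36.4% and 37.5%, TATAAA in 9.09% and 14.2%, the AP-1 site TGANTCA in 3.03% and 7.33%, and the SMAD-type motif CAGACA in 18.2% and 21.1%. A match describes letters only.

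The other type IV chains were dimmer and more variable. Col4a5, an X-linked chain of specialised basement membranes, measured -3.05, -3.22, -3.30 and -2.45 on the occlusion arrays and -2.61, -2.72, -1.93 and -2.74 on the control arrays. Occlusion 4 lay above 3 of the controls, and control 3 was highest. Its difference was -0.51 (SE 0.24, adjusted p = 0.476), the same within either slide (-0.51 and -0.51), and -0.32 without control 3. Col4a4 gave 0.46 (SE 0.51), but -0.46 within slide 1 and 1.39 within slide 2.

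Collagen VI, a beaded filament at the edge of basement membranes, had 3 measured chains. Col6a1 measured -2.57, -2.34, -2.48 and -2.76 on the occlusion arrays and -1.98, -2.33, -2.22 and -2.55 on the control arrays. Occlusion 2 and 3 lay above control 4, and the difference of -0.27 (SE 0.15, adjusted p = 0.527) was -0.26 within slide 1 and -0.28 within slide 2. Col6a2 measured -2.89, -3.68, -3.503 and -3.75 against -3.18, -3.505, -3.54 and -3.85, a difference of 0.062 (SE 0.22) whose sign turned under other settings. Col6a3 was above background on 5 arrays and gave -0.68 (SE 0.70), with control 3 alone at -2.39 and every other array at -4.61 or lower. The genes of Col6a1 and Col6a2 lie next to each other on chromosome 20, with 126 kb between the probes in rn3, and Col18a1 lies 356 kb from Col6a1.

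Single measured members of other collagen classes had wide intervals. Col8a1, a short-chain collagen of vessel walls and basement membranes, gave -0.39 (SE 0.76). Col23a1, a transmembrane collagen, gave -0.17 (SE 0.36), and Col7a1, the anchoring-fibril collagen, gave 0.015 (SE 0.59). No difference could be detected in these genes at this spread.

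Laminins are heterotrimers of 1 alpha, 1 beta and 1 gamma chain. All 3 alpha chains measured were lower on the occlusion arrays, by a median of -0.17, and none passed the test. Lama1 measured -4.30, -4.03, -4.01 and -4.46 on the occlusion arrays and -4.05, -3.93, -2.88 and -4.09 on the control arrays. Control 3 stood above the other 7 arrays by more than their whole range, and the difference was -0.46 (SE 0.27, adjusted p = 0.546), or -0.18 without control 3 and -0.20 with normexp. Lama2, an alpha chain of astrocyte and pericyte basement membranes, measured -2.03, -1.92, -1.97 and -1.73 against -1.59, -1.56, -2.35 and -1.64. Here control 3 was lowest and the other controls were above all the occlusion arrays. The difference was -0.13 (SE 0.19), or -0.31 without control 3, and the other kept Lama2 probes gave 0.046 and 0.076.

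Lama5, an alpha chain of endothelial basement membranes, measured -0.93, -0.59, -0.46 and -0.64 on the occlusion arrays and -0.52, -0.59, -0.21 and -0.60 on the control arrays. The difference was -0.17 (SE 0.14). Occlusion 1 was lowest and control 3 highest, and the difference was -0.083 without either one. The mean over the 3 alpha chains, each centred on its own mean, lay between -0.29 and -0.019 on the occlusion arrays and between 0.015 and 0.31 on the control arrays. Lama3 and Lama4 carry other names on the array and so fall outside the set. Lama3 gave -0.73 (SE 0.32), while 2 probes of Lama4, the other endothelial alpha chain, gave 0.34 (SE 0.15) and 0.27 (SE 0.24).

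Among beta chains, 2 of 3 were higher. Lamb3, a beta chain of epithelial laminin, had the largest positive difference of any member. It measured 0.52, 0.77, 1.06 and 0.71 on the occlusion arrays and 0.078, -0.22, -1.34 and 0.80 on the control arrays. Control 3 stood lowest and control 4 lay above 3 of the occlusion arrays. The difference was 0.93 (SE 0.40, 1.91-fold higher, adjusted p = 0.444), with 0.35 within slide 1 and 1.52 within slide 2, and it was 0.54 without control 3. The 3 other kept Lamb3 probes gave 1.01 (SE 0.79), 0.15 (SE 0.40) and 0.85 (SE 0.44). The probe at 1.01 was above background on only 4 arrays, 2 of each group.

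Lamb1, the common beta chain of vascular laminin, measured -0.60, -0.73, -1.15 and -0.90 on the occlusion arrays and -1.13, -1.56, -1.53 and -0.79 on the control arrays. Controls 2 and 3 were lowest, and control 4 lay above 2 of the occlusion arrays. The difference was 0.41 (SE 0.20, adjusted p = 0.486), with 0.087 within slide 1 and 0.73 within slide 2. Lamb2, the beta chain of mature vascular and synaptic basement membranes, measured -0.040, 0.34, 0.36 and -1.06 against -0.35, 0.38, 0.14 and 0.00045. Occlusion 4 alone was low, and without it the difference of -0.14 (SE 0.32) became 0.18.

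The gamma chains showed little. Lamc1, the gamma chain of most laminins, measured -3.57, -3.15, -3.30 and -3.503 on the occlusion arrays and -3.40, -3.63, -3.35 and -3.24 on the control arrays, a difference of 0.025 (SE 0.14) whose sign turned under other settings. Lamc3 gave 0.26 (SE 0.53) and was just inside the filter, above background on 4 arrays, 2 of each group.

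Nidogens bridge laminin and type IV collagen. Nid1 measured -1.57, -1.23, -0.96 and -0.77 on the occlusion arrays and -1.31, -1.18, 0.45 and -1.58 on the control arrays. Control 3 stood far above every other array, and its removal turned the difference from -0.23 (SE 0.43) to 0.22. Nid2 measured -3.33, -3.16, -3.41 and -3.20 against -2.54, -2.70, -2.70 and -3.70. Control 4 was lowest and the other controls were above all the occlusion arrays, and the difference was -0.37 (SE 0.25), or -0.63 without control 4.

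Fibronectin and the small leucine-rich proteoglycans complete the set. Fn1, a plasma and tissue glycoprotein that binds integrins and collagen, measured 1.29, 1, 0.83 and 0.62 on the occlusion arrays and 1.23, 1.29, 0.75 and 2.04 on the control arrays. Control 4 was highest, and the difference was -0.39 (SE 0.27, adjusted p = 0.606), or -0.15 without that array. A second Fn1 probe gave -0.36.

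Dcn, which binds collagen fibrils and TGF-beta, measured -1.43, -0.79, -1.46 and -1.44 on the occlusion arrays and 0.60, -0.88, -1.24 and -1.21 on the control arrays. Control 1 stood apart, and occlusion 2 lay above the other 3 controls. The difference was -0.59 (SE 0.40, adjusted p = 0.597), with -1.13 within slide 1 and -0.057 within slide 2, and it was -0.17 without control 1. Lum, a corneal and meningeal relative of decorin, measured -4.38, -4.05, -5.23 and -4.63 against -3.92, -4.74, -3.83 and -5.27, a difference of -0.13 (SE 0.37) whose sign turned without control 1, control 3 or occlusion 3. Bgn, a proteoglycan of bone and vessel walls, measured 2.12, 2.35, 2.22 and 1.84 against 2.27, 2.45, 2.77 and 1.75, a difference of -0.17 (SE 0.22). It was -0.018 without control 3 and -0.36 without control 4.

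Dcn and Lum are close relatives and neighbours, with 45.3 kb between their probes on chromosome 7, so their probes were set side by side. The Dcn probe is at chr7:35057602-35061403 and the Lum probe at chr7:35106680-35106739, both on the + strand of rn3. Capitals mark the longest stretch that the 2 probes share.
Dcn: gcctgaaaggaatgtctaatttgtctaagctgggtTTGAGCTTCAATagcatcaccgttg
Lum: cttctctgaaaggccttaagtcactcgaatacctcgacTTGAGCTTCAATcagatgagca
The shared stretch has 12 bases and occurs in these 2 probes alone of all on the array, while the longest stretch of the Dcn probe found in any other used member probe has 8. On control 1, Dcn was at 0.60 and Lum at -3.92; Lum was slightly higher on control 3, where Dcn was at -1.24.

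**Figure D3:**
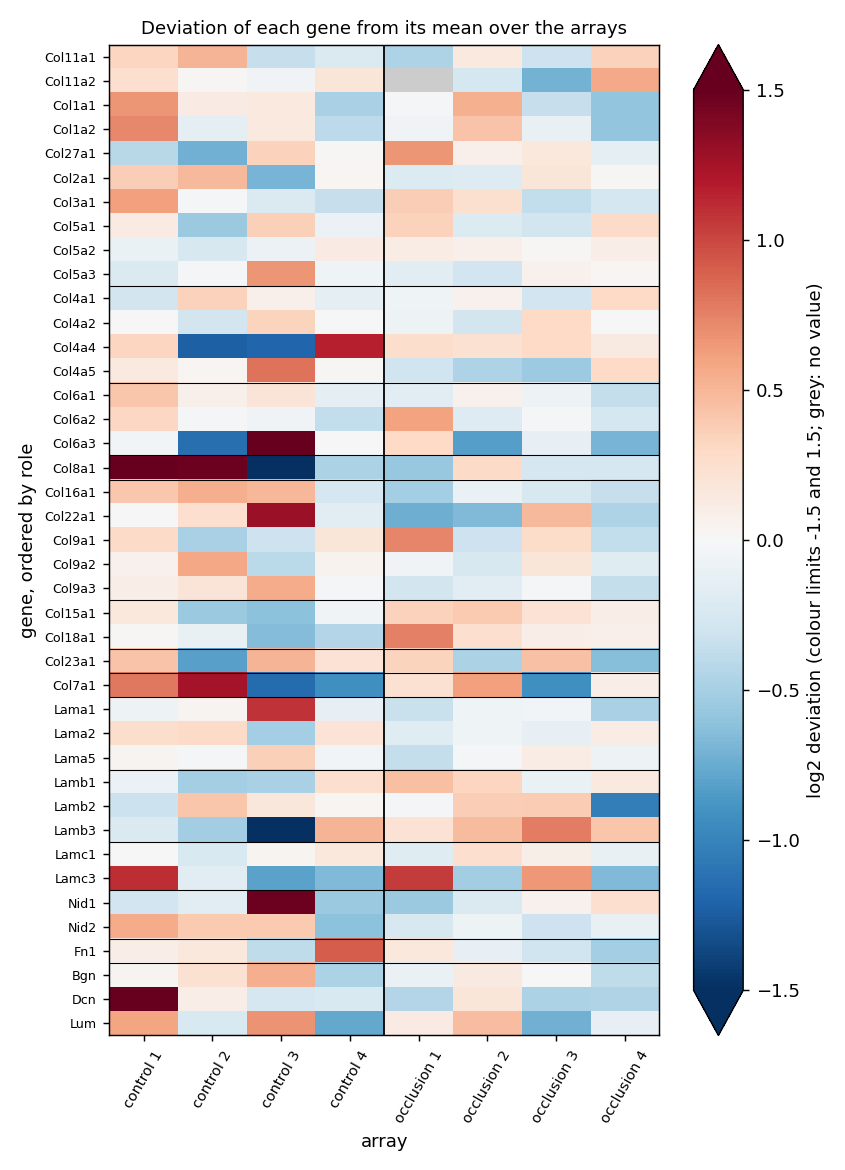
Each row is a matrix gene, ordered by role with lines between the roles, and each column an array; colour gives the log2 deviation from the gene's mean over the arrays, cut at 1.5 either way. Control 1 is the highest array for 8 genes, among them Col1a1, Col1a2, Col3a1 and Dcn, and control 3 is the highest for 13 and the lowest for 9 of 40 genes.

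A large part of the variation lay between arrays of the same group. Of the 40 genes with a value on every array, control 3 held the highest value for 13 and the lowest for 9, where it held these places for 17.2% and 22.3% of all genes. Control 1 was highest for 8 genes (20% of the members, against 7.11% of all genes) and lowest for 0 (5.16% of all genes). These 8 were Col1a1, Col1a2, Col3a1, Col6a1, Col8a1, Dcn, Lamc3 and Nid2. Lum, Bgn, Col5a1 and Col6a3 were highest on control 3, Fn1 on control 4 and Col6a2 on occlusion 1. Occlusion 4 was highest for 0 genes (10.6% of all genes) and lowest for 7 (17.5% of the members and 19.4% of all genes). The median SD within groups was 0.40 for the members and 0.23 for all genes, and 22 of 41 members lay above the 75th percentile of all genes by this SD. Set against genes of like brightness (10 bins of mean signal), 21 of 41 lay above the 75th percentile, and the members' median percentile was 75.4.

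Markers of leptomeningeal fibroblasts, the cells of the brain's covering membranes, were set beside the members, since these cells make fibrillar collagen and decorin. Of 33 markers, 25 passed the filter and 22 were above background on all 8 arrays; Slc22a6, Slc22a2, Slc13a4, Islr, Foxc1, Foxd1, Cemip and Osr1 gave no value. Of the 25, 8 were higher and 17 lower on the occlusion arrays, where 53.2% of all genes were higher. In limma 3 had an unadjusted p under 0.05, against 11.1% of all probes. Spp1 (difference -3.04) also stands in the reticular nucleus list below, Gjb6 in the astrocyte list and Pdgfra in the oligodendrocyte precursor list. The mean over 24 of the 25 markers, each centred on its own mean, was -0.079, 0.14, -0.26 and -0.27 on the occlusion arrays and 0.33, 0.12, 0.22 and -0.20 on the control arrays. It was not computed without Spp1. Control 1 was highest in this list, as it was in the type I and III collagens and Dcn. It was also highest in the means of choroid plexus markers (0.485) and blood cell markers (0.858, 4 of 8 passed). In no other marker list was control 1 the highest array. The part of any of these cell types in the members' values was not tested.

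Endothelial markers (23 of 25 passed) had a list mean between -0.022 and 0.13 on the occlusion arrays and between -0.18 and 0.083 on the control arrays, and pericyte and smooth muscle markers (15 of 17 passed) between -0.064 and 0.19 and between -0.17 and 0.12. Of the endothelial markers, 16 were higher and 7 lower, and 0 had an unadjusted p under 0.05 in limma. The pericyte and smooth muscle markers were 10 higher and 5 lower, 1 of them with such a p. Relay neuron markers, which define the thalamus, were well expressed, with 13 of 15 passing and 11 above background on all 8 arrays, while Tcf7l2 and Plekhg1 gave no value. Their list mean was 0.66, 0.45, 0.14 and 0.41 on the occlusion arrays and -0.075, -0.93, -0.94 and 0.28 on the control arrays. Controls 2 and 3, the lowest arrays in Col15a1, Lamb1 and Lamb3, were also lowest in this list. Both are on slide 2, and the slide was not tested apart from this. Among the other highest-ranked members, Col18a1 was lowest on controls 3 and 4, and Col27a1 and Col5a2 on controls 2 and 1. Of the 13 relay neuron markers, 13 were higher on the occlusion arrays, and 7 had an unadjusted p under 0.05 in limma. Calb2 was saturated on 8 arrays, Slc17a6 on 6 and Prkcd on 4. As background for every list in this paragraph, 53.2% of all genes were higher and 11.1% of all probes had an unadjusted p under 0.05. Markers of the neighbouring reticular nucleus (12 of 13 passed), 1 of them higher and 11 lower, averaged 2.43 on control 3 and between -1.92 and 0.80 on the other arrays. In limma 4 of these had an unadjusted p under 0.05, all of them lower. Oligodendrocyte and myelin markers (15 of 15 passed) were lower for 13 and higher for 2, with a median difference of -0.43, and 8 had an unadjusted p under 0.05. Their list mean lay between -0.60 and 0.0058 on the occlusion arrays and between -0.28 and 0.51 on the control arrays. All 6 oligodendrocyte precursor markers that passed, of 8, were lower (median -0.17). Of 9 choroid plexus markers that passed, of 14, 6 were lower and 3 higher (median -0.32), 4 with an unadjusted p under 0.05. Astrocyte markers (15 of 15 passed) were 8 higher and 7 lower, and microglial markers (12 of 12) were 6 and 6. No marker in these lists passed the adjusted test, and the part of any of them in the matrix genes' values was not tested.

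The slide, which the array labels give, was treated as a batch. Each slide held 2 arrays of each group. The difference between groups had the same sign on both slides for 21 of 41 members (51.2%), compared with 61.5% of all genes. With slide as a block in the fit, 0 members and 0% of all probes were called, and 14.2% of all probes had an unadjusted p under 0.05.

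**Figure D4:**
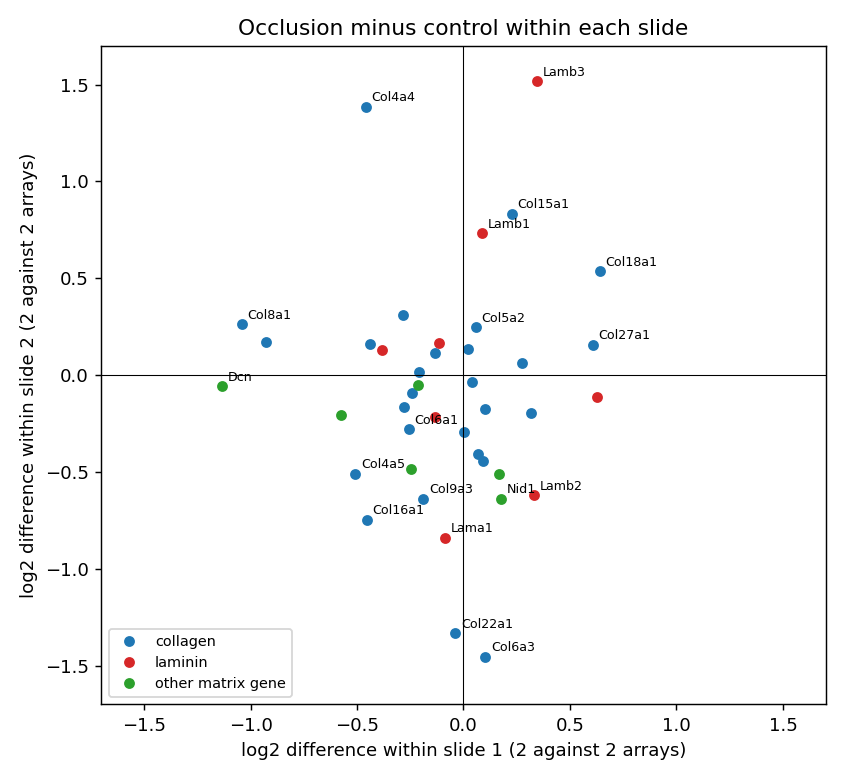
For each matrix gene the difference, occlusion minus control, within slide 1 is plotted against that within slide 2 (2 arrays per group on each, log2 units), coloured by family. The 21 of 41 points at the upper right and lower left have the same sign on both slides; Col18a1, at 0.64 and 0.54, and Col16a1, at -0.45 and -0.75, lie far out in them.

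Slide 2 against slide 1, tested in the same way with limma, called 7.16% of all probes (1.11% as higher on slide 2) and 1 of 41 members, which was lower on slide 2. This was Col9a1, whose value was -1.63, -2.68, -2.09 and -2.74 on the occlusion arrays and -2.08, -2.86, -2.68 and -2.19 on the control arrays. The 4 arrays of slide 1 (occlusion 1 and 3, control 1 and 4) all lay above the 4 of slide 2. The slide difference was -0.74 (SE 0.13, adjusted p = 0.0116). It was -0.61 with another background correction (normexp, adjusted p = 0.0539), and the second Col9a1 probe, printed above, differed by 0.88 the other way. Without control 3, Col23a1 (-1.02) and Col6a3 (-0.95) were called as well as Col9a1 (-0.79), and without control 4, Lamc3 (-1.503) as well as Col9a1 (-0.78). The share of all probes called in these fits is not given, so these calls have nothing to be set against. Col6a3 was above background on 5 arrays and Lamc3 on 4.

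Proteins that build, bind and cut this matrix were followed as well, and none of them passed the test. Among enzymes of collagen hydroxylation, folding and crosslinking, 24 of 29 were measured, 10 higher and 14 lower. Loxl2 and Lox, which crosslink collagen through lysine oxidation, had differences of 0.996 (SE 0.30) and 0.86 (SE 0.41). P3h1, a prolyl 3-hydroxylase, and Plod2, which hydroxylates lysines of collagen telopeptides, had differences of -0.32 (SE 0.15) and -0.71 (SE 0.31). For Loxl2 the occlusion arrays ran from -2.87 to -2.52 and the control arrays from -4.65 to -3.13 without overlap, and control 3 was again the lowest. Groups did not overlap for 3 of the 24, Loxl2 and Plod1 (higher) and Plod2 (lower), against 6.71% of all probes.

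Receptors of collagen and laminin were split evenly, 9 higher and 9 lower of 18 measured in a list of 25. The syndecans Sdc1 and Sdc3, cell-surface heparan sulfate proteoglycans, had differences of 0.87 (SE 0.33) and 0.39 (SE 0.15). Ddr1, a receptor tyrosine kinase for collagen, gave -0.33 (SE 0.17) and Itgb4, an integrin chain that binds epithelial laminin, gave -0.58 (SE 0.21).

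Matrix proteases and their inhibitors were also split, 8 higher and 8 lower of 16 measured in a list of 24, and 3 of the 16 had groups that did not overlap, against 6.71% of all probes. Timp3, a matrix-bound inhibitor of metalloproteinases, ran from -1.22 to -0.67 on the occlusion arrays and from -2.18 to -1.41 on the control arrays, a difference of 0.83 (SE 0.21, adjusted p = 0.403). Adamts9, a secreted protease, gave -0.92 (SE 0.24, without control 4, where its spot carried an outlier flag). The membrane-type metalloproteinases Mmp24 and Mmp16 gave 0.39 (SE 0.17) and -0.32 (SE 0.12).

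Of other basement membrane proteins, 4 were higher and 4 lower of 8 measured in a list of 14. Sparc, a collagen-binding glycoprotein, was saturated on 7 arrays and gave 0.11 (SE 0.16) as measured, Vwa1 gave 0.11 (SE 0.18), Tinagl1 -0.23 (SE 0.17) and Ntn4, a laminin-related netrin, -0.54 (SE 0.35). In the TGF-beta pathway, which drives matrix synthesis in fibroblasts, 9 were higher and 7 lower of 16 measured in a list of 20. The ligand Tgfb3 gave 0.43 (SE 0.25), the co-receptor Eng 0.26 (SE 0.12), the receptor Tgfbr1 -0.64 (SE 0.27) and the signal transducer Smad4 -0.38 (SE 0.17).

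The 6 genes of the set that did not pass the filter included Col10a1 (above background on at most 3 arrays), Col8a2 (2 arrays), Col12a1 (1 array), Col14a1 and Col17a1 (0 arrays each). Missing the filter does not show that the transcripts were absent. The member nearest to the limit from the other side, after Lamc3, was Col6a3 with 5 arrays. No member was saturated on any array. Of 17 members with 2 or more kept probes, the probes disagreed in sign in 3, which were Col1a1, Lama2 and Lamc1. Over all arrays, 65.0% to 71.6% of spots were well above background. The 75th percentiles used for scaling ranged from 1439 to 2216 in processed signal.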

How the data were processed

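RNA of 4 occlusion and 4 control animals was labelled with Cy3 (1 µg per array, per the labels' protocols) and scanned in 1 channel. Agilent Feature Extraction 9.5.1.1 was used, per the file headers. For each spot it wrote a processed intensity, corrected for background and not normalised between arrays, and flags for background, saturation and outliers, which were used as deposited. Probe positions (rn3) are those of the deposited files; exons and untranslated regions under the probes were not looked up. The deposited table of all arrays, with the same intensity in fewer digits, served as an alternative.

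From these, log2 intensity minus each array's 75th percentile over non-control spots was computed. Control spots and outlier-flagged spots were left out, and spots of 1 probe were averaged. Kept probes were well above background on at least 4 of 8 arrays, with at least 2 values per group. Occlusion and control were compared with limma 3.58.1 in R 4.3.3 (linear fit with moderated two-sided statistics; p-values adjusted by Benjamini-Hochberg over every kept probe), and slide 2 and slide 1 likewise. The number of arrays limits the precision. Probes were named from the files and a RefSeq gene table (GRCr8, names only). The script was tested on simulated data for this comparison: of 26054 probes, 46 of 100 given a true change of 1 log2 unit and 84 of 100 given 2 were called, beside 15 false calls in all.

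Genes with values on every array in the text are the members at both ends of the ranking by moderated statistic (6 at either end) and a list of main matrix genes; from each pathway list the 2 highest and 2 lowest are named. Col9a1 is also given on every array, as the member that the slide test called, which was chosen after its values were seen. Members, lists and tests were chosen with earlier results of these data known. The design text gives 4 animals per group, so each array was counted as 1 animal. The reference design it speaks of has no counterpart in the scans, which have 1 channel. Alternatives covered the scaling, the background correction, the filter, the variance model, array weights, saturated probes, the slide, the replicate number, the probe standing for a gene, and each array left out in turn. The values of 1 member are not reported here.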

Additional observations from a re-analysis of the deposited data

Results flagged for a closer look

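In 5 of 56 groups of 4 arrays (28 named members, 2 groups each), the highest or the lowest array lay further from the next one than Dixon's 95% critical value for 4 values allows, as a share of the group's range. Chance flags about 1 in 20 groups. Control 3 was lowest for Lama2, at -2.35. It was highest for Lama1, at -2.88, and for Col4a5, at -1.93. Occlusion 2 was highest for Dcn, at -0.79, and control 4 was lowest for Nid2, at -3.70. No explanation for any of the 5 was tested.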

How the results depend on the processing

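Under 23 other settings, 8 of which left out 1 array, 0 members were called between occlusion and control. With normexp background correction 1 of all probes was called. Members whose groups do not overlap numbered 1 with quantile normalisation, 1 with normexp and 1 with the 75th percentile taken without outlier spots, an alternative chosen after seeing the data; they numbered 9 on slide 1 alone and 15 on slide 2 alone, where 2 arrays face 2 and fewer values have to separate. Leaving out 1 array gave 2 to 7 such members, 9 to 18 higher and 23 to 32 lower members, a median difference from -0.17 to -0.057, and 1 to 3 members called between slides. The share of all probes whose groups do not overlap was not computed under these settings, so the counts of such members have no background. For the members called between slides under these settings, no share of all probes is given either. With normexp 0 members were called between slides (Col9a1 -0.61), and Col9a1 was at 0.070 with the mean of its probes.

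Small differences turned sign. Quantile normalisation gave 0.025 for Col3a1 and 0.0050 for Col4a2. Scaling to the median gave 0.015 for Col3a1, and the 75th percentile without outlier spots gave 0.0086. Normexp gave -0.024 for Col6a2, -0.060 for Lamc1 and 0.011 for Col3a1. Array weights gave -0.0058 for Col6a2 and 0.14 for Lamb2. The mean of all probes gave -0.041 for Lamc1. Slide 1 alone gave -0.12 for Lamc1, 0.10 for Col4a2, 0.33 for Lamb2, 0.18 for Nid1 and 0.17 for Bgn. Slide 2 alone gave -0.19 for Col6a2, -0.034 for Col4a1, 0.11 for Col3a1 and 0.13 for Lama2. Leaving out 1 array moved Col1a2 between -0.34 and 0.045, Col3a1 between -0.13 and 0.19, Col4a1 between -0.094 and 0.12, Col4a2 between -0.14 and 0.068, Col6a2 between -0.13 and 0.18, Lamb2 between -0.30 and 0.18, Lamc1 between -0.054 and 0.088, Lum between -0.41 and 0.087, and Nid1 between -0.45 and 0.22. The cause was not tested. In all, 40 of 643 values of the 28 named members turned sign.

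With the replicate number as a block, 0 members were called. Deviations from the group mean correlated at 0.36 between the arrays numbered 1, both on slide 1. They correlated at 0.51 between those numbered 2, both on slide 2. The arrays numbered 3 and 4 lay on different slides, with correlations of -0.071 and -0.28. Number and slide were not tested apart. In simulated data 46 of 100 changes of 1 log2 unit were called, and the measured difference of every kept member was smaller than 1 log2 unit. The changed probes were drawn at random from all probes, and the simulated noise held no slide effect. The members had a larger median SD (0.40) than all genes (0.23), so the 46 of 100 is no rate for the members. Without the filter on dim probes, 17 of the 47 genes were higher and 30 lower, and 0 were called.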

Other observations

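Probes of 1 gene could differ more between slides than between groups. The used Col9a1 probe had a difference, slide 2 minus slide 1, of -0.74, and the second one, which runs through the glycine repeat, of 0.88. The 2 kept Col23a1 probes had slide differences of -0.71 and 0.41 and group differences of -0.17 (SE 0.36) and -0.68 (SE 0.38). All 4 kept Lamb3 probes were lower on slide 2, with differences of -0.64, -2.18, -1.03 and -0.71. The group difference of these 4 was positive in each, from 0.15 to 1.01. The values -2.18 and 1.01 (SE 0.79) are from 1 dim probe, above background on 4 arrays. Of the 3 Col1a1 probes, the used one had a slide difference of 0.10 and the others -0.60 and -0.25.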
